A study of Mus musculus with 6 samples.

Results

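Mitochondria import nearly all of their proteins from the cytosol, and the *Tomm* and *Timm* genes encode most of the machinery that does so. The group described here was chosen by symbol: every gene of the count table whose name begins with Tomm or Timm and does not carry the pseudogene mark -ps, which gave 26 of 31169 genes. Of these, 25 are protein coding and 1, *Tomm6os*, is an antisense RNA annotated opposite *Tomm6*. The group was taken up with earlier results of these data known, among them the rise of *Tomm6*, so its values in the contrast between saline and microbead are given as a description and support nothing further.

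RNA was sequenced from whole retina of C57BL/6 mice that were 2 months old, 4 weeks after an injection at 1 month of age. The 3 control libraries came from saline-injected mice. The 3 others came from mice injected with microbeads 15 µm in diameter, which obstruct fluid outflow and raise intraocular pressure (IOP), an inducible model of glaucoma. The labels give an injection of 1 µL in both groups, whereas the methods of the study give another volume. According to the methods of the study the mice were male and were injected in both eyes. The strain carried no engineered allele, and the controls shared the injection itself with the microbead group. Nothing in the labels says which libraries came from separate animals, so p-values measure the spread between these libraries. Whole retina is a mixture of cell types, in which fewer cells of a type and less RNA per cell cannot be told apart.

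Precursor proteins first meet the translocase of the outer membrane (TOM), where receptors hand them to a channel. Those with an N-terminal presequence then pass the TIM23 complex into the matrix, drawn in by a motor that uses ATP, whereas carrier proteins of the inner membrane are escorted across the intermembrane space by small TIM chaperones and inserted by the TIM22 complex. Neurons of the retina, photoreceptors above all, are rich in mitochondria and depend on this supply.

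The libraries held 13574949 to 46481382 counts, and each saline library was deeper than each microbead library. Levels are given in counts per 1000000 counts of a library (CPM), with library totals scaled by the trimmed mean of M-values (TMM). The share of counts from the mitochondrial genome was 3.19 to 3.57% in saline and 8.90 to 10.6% in microbead libraries. Retinal identity was clear, with summed levels of 8 rod markers of 61044 to 80898 CPM in saline and 54024 to 67471 CPM in microbead libraries, and no marker of any list was at 0 in every library. Single libraries stood apart. The 5 lens markers summed to 359 CPM in saline 3 and to 0.578 to 28.4 CPM in the others, and the 8 retinal ganglion cell (RGC) markers summed to 327 CPM in saline 1 against 823 to 1236 CPM in the others. In the test described below, 4 of 6 endothelial markers were lower in the microbead group (sums of 209 to 287 against 115 to 158 CPM). So were 1 of 4 horizontal cell markers (97.6 to 149 against 54.0 to 93.0 CPM), 1 of 8 rod and 1 of 6 Müller glia markers. Of 6 cone markers 1 was higher, and no marker of the other lists was called. Over all tested genes 12.8% were called, 6.46% higher and 6.31% lower. The 5 pigment epithelium markers summed to 7.44 CPM in saline 1, 33.4 in saline 2 and 149 in saline 3, and to 70.6 to 86.8 CPM in microbead libraries. The part of these differences in the results was not tested, but each called member is also given without each library. The names of the sequencing libraries form a separate series for each group, so that group and series cannot be told apart.

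The sequences that bear on the results come first. *Tomm6*, the member with the greatest difference, lies on the reverse strand of chromosome 17 at chr17:47686646-47688386 (GRCm38, GENCODE vM21), and its coding sequence is short. It is shown because every one of its 225 bases lies in exons of a second gene on the same strand, the read-through gene *Gm21981*. Capitals mark the 128 bases that lie, in addition, opposite exons of the antisense gene *Tomm6os*.
Tomm6 coding sequence: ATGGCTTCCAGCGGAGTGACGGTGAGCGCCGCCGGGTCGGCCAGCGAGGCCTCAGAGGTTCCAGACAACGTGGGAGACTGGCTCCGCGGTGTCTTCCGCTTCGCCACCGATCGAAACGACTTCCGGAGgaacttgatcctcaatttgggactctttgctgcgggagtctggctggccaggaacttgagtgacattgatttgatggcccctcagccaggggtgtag

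The windows around the starts of the 4 members that passed the test below are shown. They run from 250 bases before to 50 bases after the RefSeq start (GRCm38.p6). They set the promoters of *Tomm6* and *Tomm6os*, both called higher, beside those of *Timm10b* and *Timm23*, which moved in opposite directions. Capitals mark matches, on either strand, to a set of 6 short motifs: the NRF1 core GCATGCGC, the ETS core CCGGAAG (bound by GABP, a regulator of nuclear genes for mitochondria), the YY1 core AAGATGGC, the SP1 core GGGCGG, the TATA box motif TATAAA and the motif of the CCAAT box.
Tomm6 window, chr17:47688337-47688636, reverse strand: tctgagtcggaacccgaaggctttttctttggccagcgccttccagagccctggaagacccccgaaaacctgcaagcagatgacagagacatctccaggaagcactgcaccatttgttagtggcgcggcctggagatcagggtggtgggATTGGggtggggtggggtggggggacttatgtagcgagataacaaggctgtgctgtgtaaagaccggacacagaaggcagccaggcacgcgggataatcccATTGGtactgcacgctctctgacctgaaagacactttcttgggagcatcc
Tomm6os window, chr17:47687360-47687659, forward strand: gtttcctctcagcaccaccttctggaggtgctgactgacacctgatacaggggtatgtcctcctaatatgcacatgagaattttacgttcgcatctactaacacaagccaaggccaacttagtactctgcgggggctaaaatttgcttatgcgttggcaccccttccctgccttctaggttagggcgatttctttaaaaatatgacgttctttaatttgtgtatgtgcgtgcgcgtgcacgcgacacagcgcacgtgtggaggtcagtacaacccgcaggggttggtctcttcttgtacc
Timm10b window, chr7:105640195-105640494, forward strand: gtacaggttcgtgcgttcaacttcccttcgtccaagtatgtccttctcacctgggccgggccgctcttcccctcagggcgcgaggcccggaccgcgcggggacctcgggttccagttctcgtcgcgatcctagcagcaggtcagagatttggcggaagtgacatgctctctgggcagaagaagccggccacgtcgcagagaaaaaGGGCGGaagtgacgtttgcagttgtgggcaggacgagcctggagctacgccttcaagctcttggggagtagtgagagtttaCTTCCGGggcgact
Timm23 window, chr14:32201842-32202141, reverse strand: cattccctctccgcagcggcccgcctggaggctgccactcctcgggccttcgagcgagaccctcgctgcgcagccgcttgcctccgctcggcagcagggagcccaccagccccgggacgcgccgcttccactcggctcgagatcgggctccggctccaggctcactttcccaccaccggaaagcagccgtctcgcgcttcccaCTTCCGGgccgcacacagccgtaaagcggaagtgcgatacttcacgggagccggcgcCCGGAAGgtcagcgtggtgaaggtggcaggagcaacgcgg

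The *Timm23* window held 2 ETS cores, and that of *Timm10b* 1 ETS and 1 SP1 core. The *Tomm6* window held neither but had CCAAT on the opposite strand at 2 places, whereas the *Tomm6os* window matched none of the 6 motifs. RefSeq windows were found for 23 of the 26 members (25 windows, since *Tomm34* and *Timm22* have 2 each, which overlap in part). Of these 25 windows, 10 (40%) held the ETS core, against 8.86% of all 32851 windows, 12 (48%) held the SP1 core against 35.7%, and 7 (28%) held CCAAT against 37.4%. TATAAA occurred in 2 (against 13.6% of all windows), and NRF1 (*Timm13*; 2.71%) and YY1 (*Timm50*; 2.75%) in 1 each. The member windows were also richer in CpG, with a median of 20 CpG against 7 in all windows, and in GC (58.7% against 52.7%), and the part of base composition in these matches was not tested. Matches describe the letters of these windows and not binding. The ETS core was present in members that were higher, lower and neither in microbead retina.

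How abundant each part of the machinery was in retina can be read only per length, as CPM per kilobase of exon. Length was that of all annotated exons of a gene merged, so the order depends in part on how many transcripts are annotated. In saline retina *Timm8b* had the highest level, 72.5 ± 8.42 CPM per kilobase (mean ± SD, n = 3 here and below), followed by the receptors *Tomm20* (47.4 ± 6.96) and *Tomm22* (43.1 ± 6.03), which did not differ beyond their spread, and by *Tomm7* (36.7 ± 2.75) and *Timm13* (36.2 ± 4.40). A middle group from *Timm23* (17.3 ± 1.16) to *Tomm34* (9.91 ± 1.53) held most core subunits, the channel *Tomm40* (11.0 ± 1.09) among them. The order ended with *Tomm6os* (0.758 ± 0.132), *Tomm6* (0.191 ± 0.132), *Tomm20l* (0.0921 ± 0.0165) and *Timm8a2* (0.0464 ± 0.0617). By this measure *Tomm6* was far below the other small TOM subunits, *Tomm7* and *Tomm5* (15.8 ± 2.71), with which its protein is built into the same complex. However, 76.0% of its exon bases are also exons of *Gm21981*, whereas *Tomm7* and *Tomm5* overlap no other exon. Reads of *Tomm6* may have been left out for that reason, so its level cannot be compared safely with theirs. In microbead retina *Tomm6* stood at 2.26 ± 1.04 CPM per kilobase, again below *Tomm7* (40.3 ± 13.2).

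**Figure D1:**
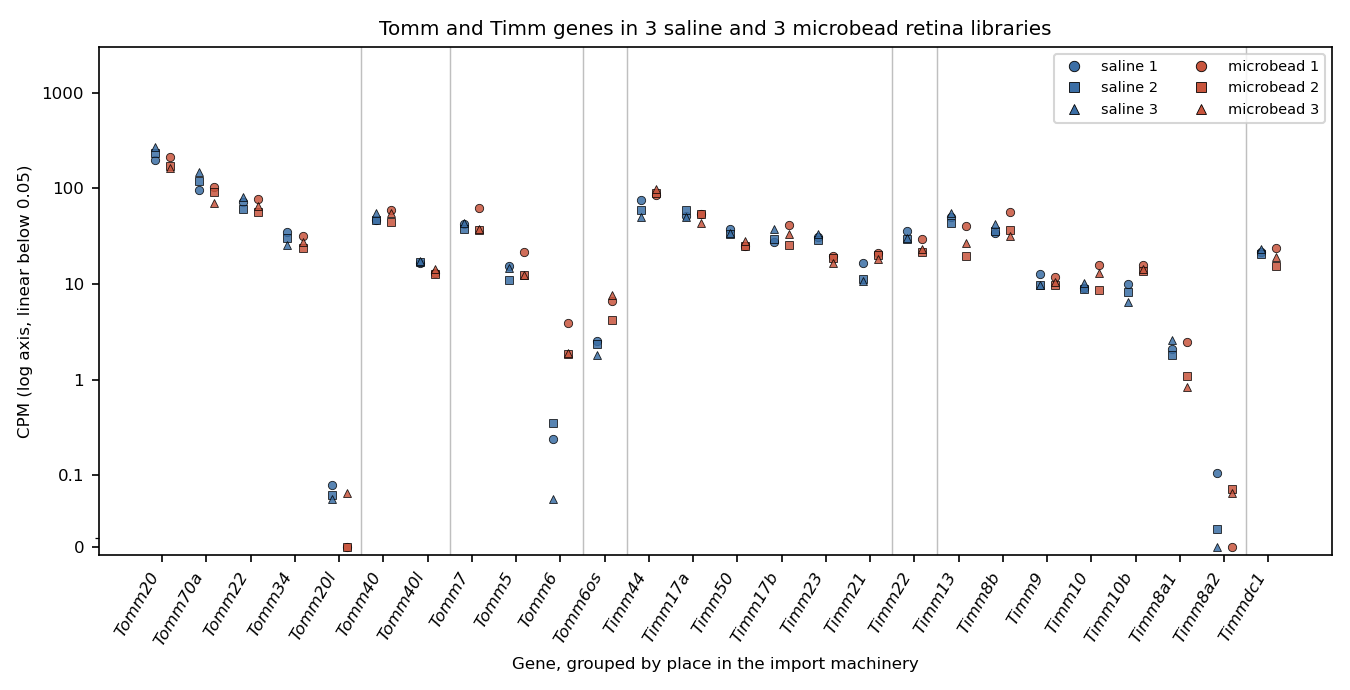
Level of each *Tomm* and *Timm* gene in CPM (log axis, linear below 0.05) in the 3 saline (blue) and 3 microbead (red) libraries, grouped by place in the import machinery and, within a group, by mean saline level; the marker shape gives the library number. Most genes lie between 10 and 100 CPM with overlapping groups, *Tomm6* is below 0.4 CPM in every saline library and above 1.8 CPM in every microbead library, and microbead 1 (red circle) is often the highest of its group.

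To ask which members differed after 4 weeks of microbead occlusion, edgeR's quasi-likelihood test compared the groups over all 17707 genes that passed a filter on low counts (in at least 3 libraries, a CPM worth 10 counts in a library of median depth), with a gene called at an adjusted p under 0.05 (Benjamini-Hochberg over all tested genes). *Timm8a2* and *Tomm20l* did not pass the filter, leaving 24 members. Of these, 4 (16.7%) were called, against 12.8% of all tested genes, with 3 higher in microbead retina (6.46% of all genes) and 1 lower (6.31%). *Tomm6*, *Tomm6os* and *Timm10b* were higher, and *Timm23* was lower. Of these, *Tomm6* passed the filter only because of its level in the microbead libraries. The groups did not overlap in CPM for 9 members (37.5%, against 37.8% of all tested genes), 5 of them higher and 4 lower. The median log2 fold change, microbead minus saline, was -0.05 over the 24 members and -0.03 over all tested genes, and 16 of the 24 had an absolute log2 fold change under 0.5. At an unadjusted p under 0.05 there were 8 members, and 5564 of all 17707 genes. The import genes as a list were thus close to the whole table in both count and median.

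The sums of CPM by complex overlapped between the groups. All 25 protein-coding members together came to 974 ± 63.7 CPM in saline and 889 ± 120 CPM in microbead retina. The TOM receptors and their cytosolic partner summed to 455 ± 60.2 and 367 ± 52.1 CPM, the channel genes to 66.5 ± 5.44 and 66.4 ± 7.77 CPM, and the small TOM subunits to 55.2 ± 5.24 and 63.5 ± 21.4 CPM. The TIM23 complex with its motor summed to 226 ± 12.6 and 238 ± 6.37 CPM, and the small TIM chaperones to 118 ± 9.34 and 110 ± 28.6 CPM. The mitochondrial genome took up more of each microbead library, as given above, and these sums overlapped all the same.

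Among the receptors, which recognise precursors at the cytosolic face, no member was called, and 0 had an unadjusted p under 0.05 (edgeR). *Tomm20*, which binds presequences, had 199, 232 and 267 CPM in saline 1 to 3 and 213, 172 and 165 CPM in microbead 1 to 3. The microbead 1 value fell among the saline values, and the log2 fold change was -0.34 (95% interval -0.76 to 0.07). *Tomm22*, the receptor that anchors the complex, had 71.4, 61.0 and 80.9 CPM in saline and 77.1, 56.6 and 66.1 CPM in microbead libraries, which overlapped (-0.09, interval -0.51 to 0.32). *Tomm70a*, which receives carrier precursors with their chaperones, had 97.2, 118 and 147 CPM in saline and 104, 92.1 and 70.7 CPM in microbead libraries. Again microbead 1 alone reached into the saline range, at a log2 fold change of -0.44 (interval -0.92 to 0.04, adjusted p = 0.191 from edgeR). *Tomm34*, a cytosolic co-chaperone of import, overlapped (-0.13). *Tomm20l*, a paralogue of *Tomm20*, was near the limit of detection, with 3, 3 and 2 counts in saline and 0, 0 and 1 counts in microbead libraries, for which no fold is given.

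Neither channel gene was called. *Tomm40*, the pore of the outer membrane, had 46.8, 46.7 and 55.3 CPM in saline and 58.9, 44.7 and 55.5 CPM in microbead libraries, so that the groups overlapped, and its log2 fold change of 0.10 had an interval from -0.30 to 0.49. Its paralogue *Tomm40l* did not overlap (16.4 to 17.5 CPM in saline, 12.9 to 14.3 CPM in microbead libraries), but it was not called (-0.34, adjusted p = 0.244 from edgeR). Of the *Tomm40l* exon bases, 64.3% are also exons of genes on the opposite strand.

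The small TOM subunits steady the complex around its channel, and of these *Tomm6* was called. Its saline libraries alone would not have passed the filter, so *Tomm6* entered the test through the group where it was high. Its call and fold change are therefore a description only. Its counts were 9, 17 and 2 in saline and 76, 26 and 29 in microbead libraries, although the microbead libraries were shallower. In CPM it had 0.239, 0.353 and 0.0571 in saline and 3.91, 1.88 and 1.88 in microbead retina. Every microbead library was above every saline library, and microbead 1 was 2.08 times the mean of the other 2. The log2 fold change was 3.51 (SE 0.67, interval 2.02 to 5.005, adjusted p = 0.0161 from edgeR). Counting error alone is wide at these depths, with exact 95% Poisson intervals of 4.12 to 17.1, 9.90 to 27.2 and 0.242 to 7.22 counts for saline 1 to 3 and of 59.9 to 95.1, 16.98 to 38.1 and 19.4 to 41.6 counts for microbead 1 to 3. Neither of its companions was called. *Tomm5* had a log2 fold change of 0.19 (interval -0.42 to 0.80) and *Tomm7* of 0.14 (interval -0.38 to 0.65), with overlapping groups in both.

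*Tomm6os*, annotated on the opposite strand at chr17:47687610-47691083, had 96, 113 and 63 counts in saline and 128, 58 and 117 counts in microbead libraries. These correspond to 2.55, 2.34 and 1.80 CPM in saline and 6.59, 4.19 and 7.60 CPM in microbead retina. The groups did not overlap (log2 fold change 1.46, SE 0.34, adjusted p = 0.0278 from edgeR). Unlike *Tomm6*, it was highest in microbead 3 and not in microbead 1.

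The annotation of the locus limits what the *Tomm6* count can hold. Of 1131 exon bases of *Tomm6*, 859 (76.0%) are also exons of *Gm21981*, 219 lie opposite *Tomm6os* exons and 93 opposite *Usp49* exons. Only 272 bases (24.0%) are free of other exons on the same strand, and 179 (15.8%) on either strand. Of the free bases on either strand, 125 belong to a transcript with a retained intron alone, and the coding transcripts hold 54. The library kit kept strand, but neither the strand setting of the counting nor the handling of reads that fit several genes is given in the sources used here, so reads of *Tomm6*, *Gm21981* and *Tomm6os* may have been divided or left out in a way that cannot be seen in the table.

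**Figure D2:**
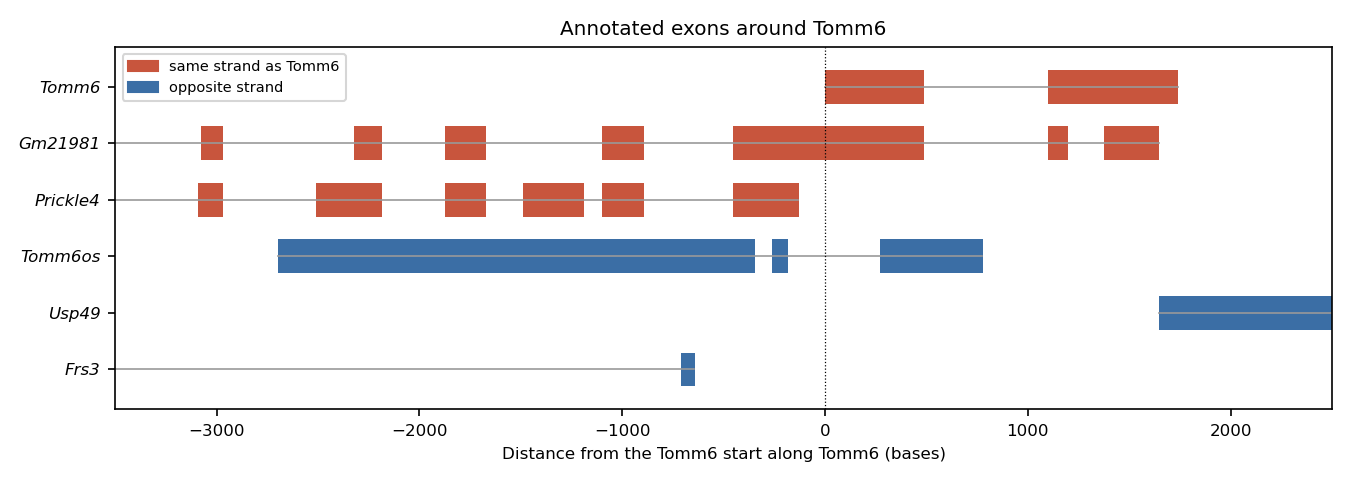
Annotated exons (boxes) of *Tomm6* and the genes around it, by distance in bases from the *Tomm6* start, counted along *Tomm6*; red genes lie on the strand of *Tomm6* and blue genes on the other. The first *Tomm6* exon lies wholly within an exon of *Gm21981*, and the first *Tomm6os* exon lies partly opposite it.

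The neighbours were low except for *Usp49* and *Frs3*. *Gm21981* had 8, 8 and 1 counts in saline and 8, 9 and 14 counts in microbead libraries, with a log2 fold change of 2.21 that was not called (adjusted p = 0.0759 from edgeR). Like *Tomm6*, it passed the filter because of its microbead libraries. Added together, *Tomm6* and *Gm21981* came to 0.452, 0.518 and 0.0856 CPM in saline and 4.32, 2.53 and 2.79 CPM in microbead libraries. The sum did not overlap between groups. Reads that fit both genes may have been counted in neither, so the sum cannot show how reads were divided between them. *Usp49*, a ubiquitin-specific protease gene whose last exon meets the end of *Tomm6* from the opposite strand, was called higher, with 25.6, 20.6 and 12.4 CPM in saline and 36.6, 39.2 and 36.5 CPM in microbead retina (log2 fold change 0.94, adjusted p = 0.0416 from edgeR). *Frs3*, an adaptor of growth factor receptors on the far side, overlapped (0.26), and *Prickle4* was below the filter. *Gm20517*, which overlaps *Usp49* on the same strand, was not called (0.90, adjusted p = 0.308 from edgeR). Of the *Usp49* exon bases, 51.2% are also exons of other genes on that strand, so its count has a limit like that of *Tomm6*. At this locus the genes that were called were thus *Tomm6*, *Tomm6os* and *Usp49*, all higher. Over all tested genes 12.8% were called and 6.46% were higher. Exons of *Tomm6* lie in part opposite those of *Tomm6os* and *Usp49*, so these calls may not be separate observations.

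**Figure D3:**
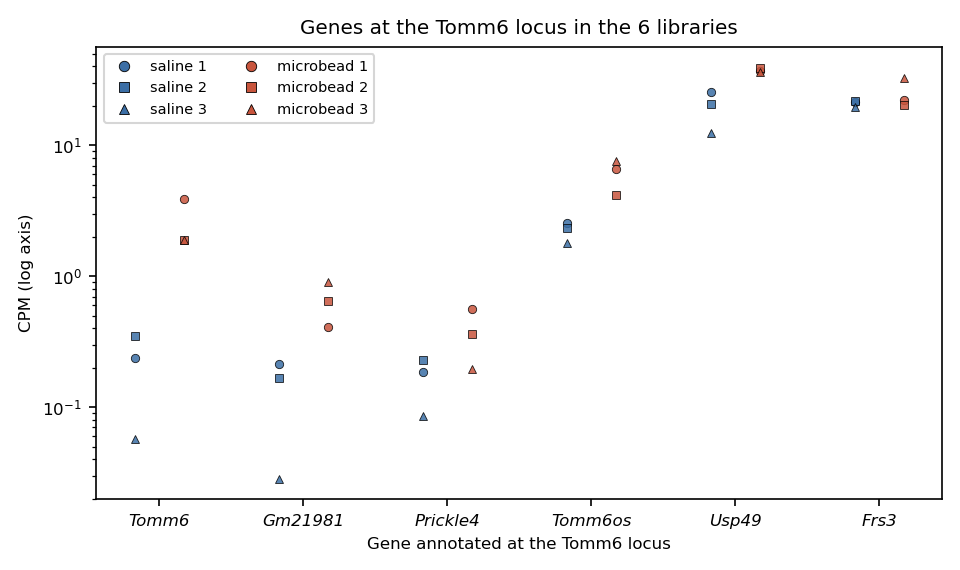
Level in CPM (log axis) of *Tomm6*, its antisense RNA and 4 neighbouring genes in the 3 saline (blue) and 3 microbead (red) libraries; the marker shape gives the library number. Microbead values of *Tomm6*, *Gm21981*, *Tomm6os* and *Usp49* lie above all saline values, while those of *Prickle4* and *Frs3* overlap with them.

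Overlap of this kind is uncommon in the table. Of 17643 tested genes with annotation, 68 (0.385%) shared at least as large a part of their exons with another gene on the same strand as *Tomm6* did. Of these 68, 14 (20.6%) were called, *Tomm6* itself included, against 12.7% of the rest. The median log2 fold change of the 68 was 0.95. Over the 1402 genes with any overlap on the same strand, 15.8% were called, against 12.5% of the rest, and the median was 0.066. Whether others of the 68 passed the filter only because of their microbead libraries, as *Tomm6* did, was not tested. Among the tested members, any overlap on the same strand was found in 4, and these were the 4 called members. It covered 5.82% of the exon bases of *Timm23* and 2.34% of those of *Tomm6os*. Over all tested genes with annotation, 7.95% had such overlap. Sequence held in common with another gene was counted for the members only. Of 26 members, 11 shared at least 1 stretch of 100 bases, the 4 called members among them, and 23 a stretch of 31 bases. The share of all genes with such stretches was not computed, so nothing is read from these counts. They hold both overlap with a gene at the same place and copies elsewhere, down to 0.188% of the 100-base stretches in *Tomm5*. Of the members that were not called, *Tomm40l* (48.7%) and *Timm8a1* (38.8%) shared the most stretches of 100 bases. *Timm10b* shared 10.5% of its exon bases with a read-through gene on the same strand (listed under the symbol *Dnhd1*), which had 22, 21 and 9 counts in saline and 8, 4 and 8 in microbead libraries. *Timm23* is alike in sequence to *Gm10273* on chromosome 10: of its stretches of 100 bases, the length of a read, 46.7% occur there unchanged. *Gm10273* itself had 1, 2 and 0 counts in saline and 0 in each microbead library. The part of exon overlap or shared sequence in these 4 results was not tested.

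By pattern, the 5 genes most like *Tomm6* across the 6 libraries (Pearson's r of log2 CPM with 0.1 added, a description over 6 points that share the group difference) were *Mterf1a* (r = 0.998), *Gm3294* (0.997), *Gm12405* (0.996), *A330032B11Rik* (0.995) and *Gm13259* (0.995). Only *Mterf1a*, a factor of mitochondrial transcription, is protein coding, and the others are noncoding RNAs and a pseudogene. *Tomm6os* stood at rank 730 (r = 0.932), and no other member was among the 5.

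In the TIM23 complex 1 of 6 members was called. *Timm23*, the presequence channel of the inner membrane on chromosome 14, was called lower. Its counts were 1164, 1395 and 1159 in saline and 384, 260 and 253 in microbead libraries, which gives 30.9, 28.9 and 33.1 CPM against 19.8, 18.8 and 16.4 CPM. The groups were well apart (log2 fold change -0.76, SE 0.18, adjusted p = 0.0268 from edgeR), and microbead retina had 0.592 of the saline level. *Timm50*, the receptor that passes presequences to this channel, had 37.7, 33.6 and 33.8 CPM in saline and 25.0, 25.0 and 27.9 CPM in microbead libraries. It did not overlap either, but at -0.43 it was not called (adjusted p = 0.109 from edgeR).

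*Timm44*, which docks the motor chaperone at the channel, had 75.4, 59.8 and 49.9 CPM in saline and 84.3, 89.8 and 97.3 CPM in microbead retina. The groups did not overlap, and the fold change had the opposite sign to that of *Timm23* (0.55, adjusted p = 0.0823 from edgeR). *Timm21*, which links the complex to TOM and to the respiratory chain, had 10.8 to 16.6 CPM in saline and 18.1 to 20.9 CPM in microbead libraries (0.62, adjusted p = 0.0983). Neither was called. *Timm17a* and *Timm17b*, alternative partners of the channel, overlapped between groups (-0.10 and 0.08). The groups did not overlap for 4 of the 6 members of the complex, 2 in each direction, against the 37.8% of all tested genes, a share from which nothing is read over 6 members.

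*Timm22*, the channel that inserts carriers, had 35.5, 29.6 and 30.5 CPM in saline and 29.6, 21.9 and 23.3 CPM in microbead libraries. Microbead 1 just exceeded the lowest saline library (log2 fold change -0.35, interval -0.78 to 0.07, adjusted p = 0.232 from edgeR). Its partner *Timm29* is listed under the older symbol *1810026J23Rik*, outside the rule, and was at 100 ± 6.35 and 91.9 ± 8.54 CPM.

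The small TIM chaperones shield hydrophobic precursors in the intermembrane space. *Timm10b*, the member that sits on the TIM22 complex, was called higher, with 376, 400 and 226 counts in saline and 308, 189 and 221 counts in microbead libraries. In CPM it had 9.99, 8.30 and 6.45 against 15.9, 13.6 and 14.4, without overlap (log2 fold change 0.83, SE 0.23, adjusted p = 0.0482 from edgeR, just under the threshold). *Timm13*, which pairs with *Timm8*-type chaperones, had the lowest fold change of all members, -0.77, with 43.3 to 55.2 CPM in saline and 19.6 to 40.4 CPM in microbead libraries. It did not overlap, but its microbead libraries were spread widely and it was not called (adjusted p = 0.0748 from edgeR). Its partners *Timm8b* (0.15) and *Timm8a1* (-0.55) both overlapped between groups, and whether they differed from *Timm13* was not tested. *Timm9* (-0.01) and *Timm10* (0.42), which form a ring together, overlapped as well. *Timm8a2*, a copy of *Timm8a1*, had 4, 1 and 0 counts in saline and 0, 1 and 1 counts in microbead libraries. *Timmdc1*, whose protein helps to assemble respiratory complex I, overlapped (-0.16).

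**Figure D4:**
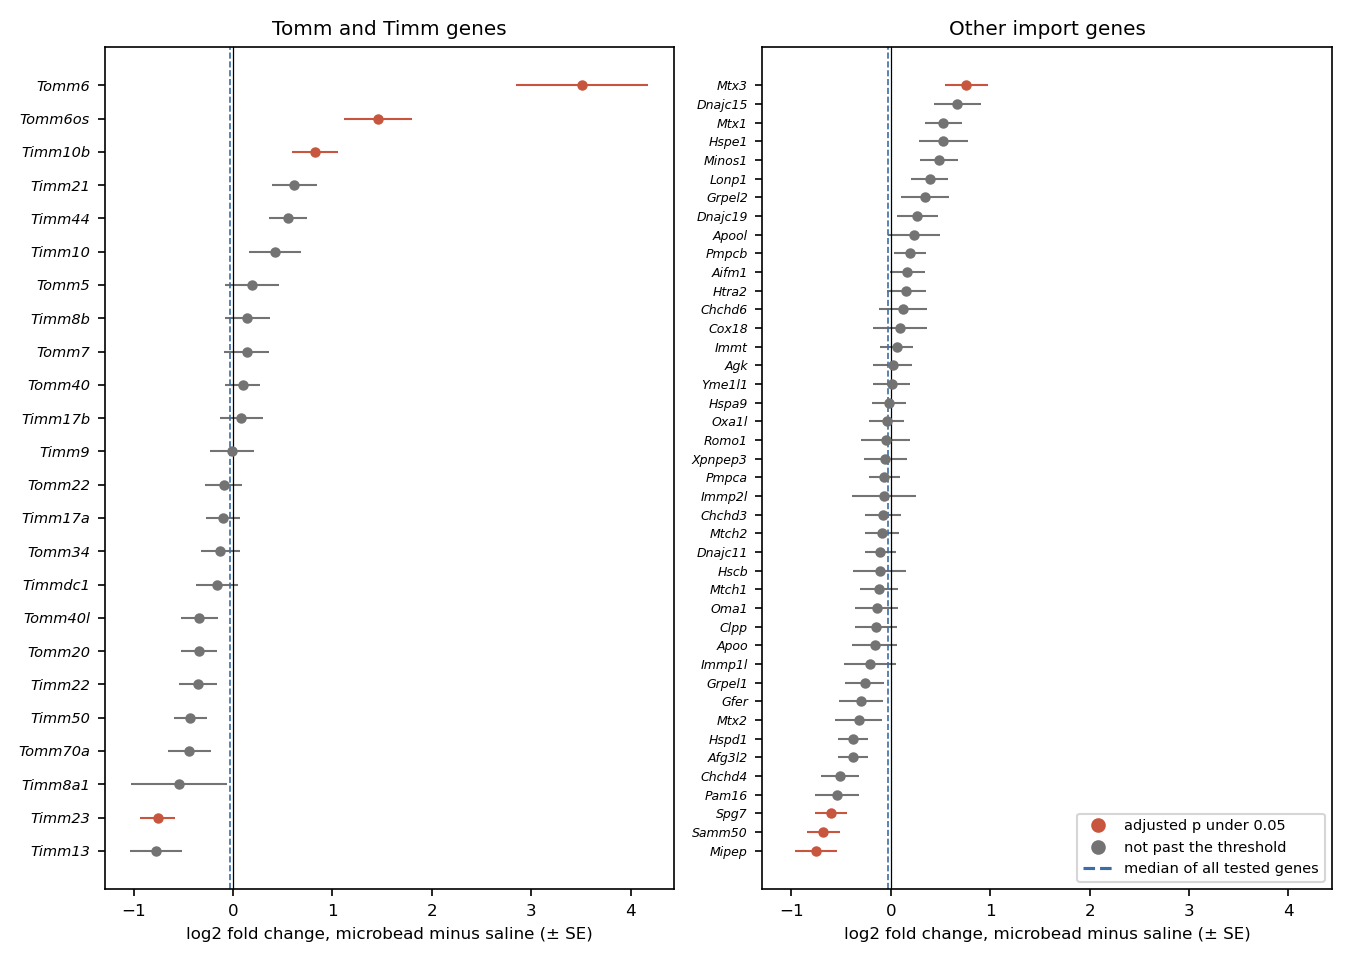
Log2 fold change, microbead minus saline, with its SE, for the 24 tested *Tomm* and *Timm* genes (left) and 42 other import genes (right), in order of size; red genes passed an adjusted p of 0.05, grey ones did not, and the dashed line is the median of all tested genes. Beside *Tomm6* at 3.51 and *Tomm6os* at 1.46, values of both lists lie between -0.77 and 0.83.

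Import also depends on genes with other names. Of 42 such genes, fixed as a list with earlier results known and all tested, 4 (9.52%) were called, against the 12.8% of all genes, and 13 (30.95%) did not overlap, against 37.8%. Their median log2 fold change was -0.06. *Samm50*, the core of the machinery that inserts barrel proteins such as the TOM channel into the outer membrane, was lower, with 63.5, 64.6 and 70.8 CPM in saline and 43.1, 36.9 and 44.2 CPM in microbead libraries (-0.68, adjusted p = 0.0296 from edgeR). *Mtx3*, a metaxin of the same machinery, was higher, with 34.3, 33.1 and 21.0 CPM against 45.3, 54.2 and 50.2 CPM (0.76, adjusted p = 0.0482). *Mipep*, a peptidase that trims imported proteins, was lower, with 19.0, 19.0 and 25.6 CPM against 11.7, 11.6 and 14.3 CPM (-0.76, adjusted p = 0.0472). *Spg7*, a subunit of an inner membrane protease, was lower too, with 118, 123 and 133 CPM against 76.4, 81.5 and 89.3 CPM (-0.60, adjusted p = 0.0389). Among the presequence motor partners (8 listed genes, *Hscb* and *Romo1* included) and the matrix chaperonin (2), no gene was called by edgeR or by DESeq2. Nor was any gene of the disulfide relay (3) or the membrane insertases (5). These lists held 2, 1, 1 and 0 genes at an unadjusted p under 0.05 from edgeR.

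Within the microbead group, 1 library was the highest in most members, though not in all. Microbead 1 had the highest CPM of its group in 20 of 24 members (83.3%), and microbead 2 in none, whereas over all tested genes microbead 1 was highest in 37.6%. Among the other import genes it was highest in 25 of 42 (59.5%). The ratio of microbead 1 to the mean of microbead 2 and 3 was greatest in *Timm8a1* (2.56), which had 48, 15 and 13 counts, in *Tomm6* (2.08) and in *Tomm5* (1.75), *Timm13* (1.74) and *Tomm7* (1.70), and least in *Timm44* (0.901). The 10 protein-coding members with less than 2000 exon bases had a median ratio of 1.67, and the 13 longer ones of 1.155. The same order held over all tested protein-coding genes, at 1.27 and 0.962. The part of transcript length in the level of these members in microbead 1 was not tested. In saline, by contrast, the highest library was saline 3 in 13 members and saline 1 in 9.

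Most calls did not hold when 1 library was left out, except without saline 1, where all 4 held. *Tomm6* remained past the threshold without any 1 of the saline libraries or without microbead 2, but not without microbead 1 (log2 fold change 3.07, adjusted p = 0.0550 from edgeR) or microbead 3 (3.69, adjusted p = 0.0733). *Tomm6os* remained called without saline 1 or microbead 2, and *Timm10b* and *Timm23* without saline 1 only. The direction of these 4 held in each case, with log2 fold changes of 3.07 to 4.05 for *Tomm6*, 1.27 to 1.69 for *Tomm6os*, 0.68 to 0.98 for *Timm10b* and -0.82 to -0.69 for *Timm23*. Without saline 3, the library with lens RNA, they were 3.09, 1.32, 0.68 and -0.71, and without saline 1, the library low in RGC markers, 3.56, 1.56, 0.98 and -0.76. Over the whole table, 5 libraries gave from 46 calls (without microbead 3) to 2621 (without saline 1), against 2261 with all 6. With every library thinned to the smallest total, *Tomm6* had a log2 fold change of 4.53 (adjusted p = 0.0157 from edgeR), against 3.51 with all counts. The thinned value comes from a single random draw of counts that were already low in saline.

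**Figure D5:**
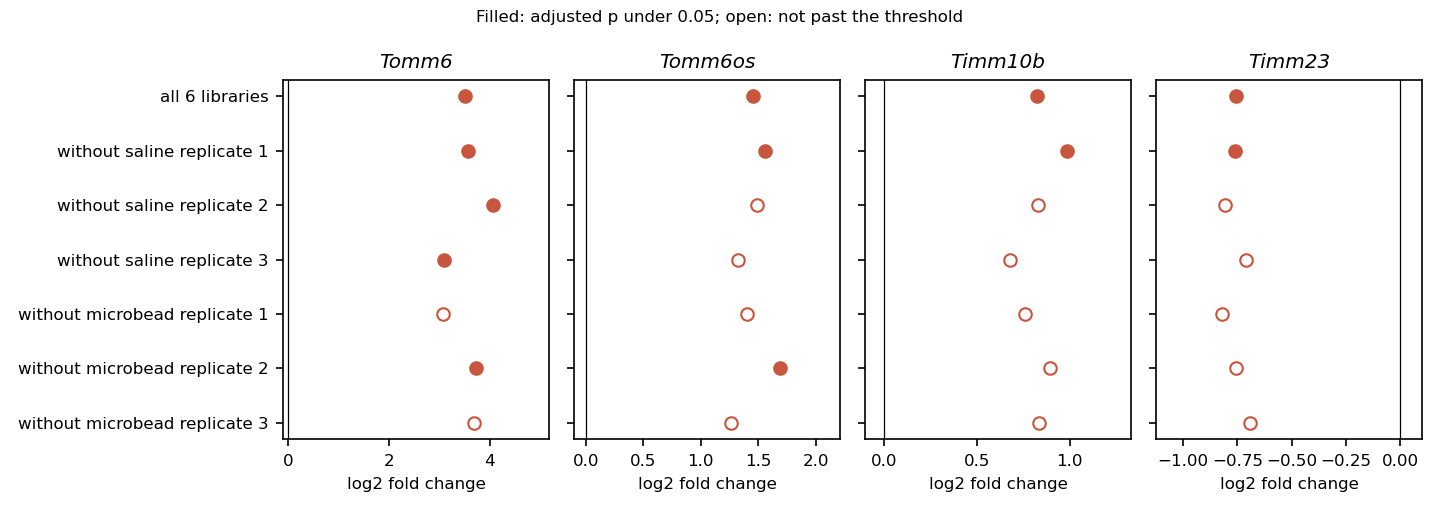
Log2 fold change, microbead minus saline, of the 4 called members with all 6 libraries and with each library left out in turn; filled points have an adjusted p under 0.05 and open points do not, and each panel has its own axis. All points of *Tomm6*, *Tomm6os* and *Timm10b* lie above 0 and all of *Timm23* below 0, while most are open.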

How the data were processed

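RNA from whole retina was sequenced by the authors as 100-bp paired reads from a stranded poly(A) library. Per the labels and the methods of the study, reads were aligned with STAR 2.5.3a to GRCm38.p5 and counted per gene with featureCounts 1.15.2. The deposited values are raw counts, and 0 columns of per-sample values were left unmapped. The table also holds the authors' own DESeq2 1.14 comparison (means, fold changes and p-values), which was not used.

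All genes were fitted here in edgeR 4.0.16 (R 4.3.3) by its quasi-likelihood test, with TMM scaling, filterByExpr (a CPM worth 10 counts at median depth in at least 3 libraries, and 15 counts in total) and Benjamini-Hochberg adjustment. SE values were taken from the coefficient and its F statistic, and 95% intervals from the t distribution with the degrees of freedom of the test. The code was tested on simulated counts. Members, gene lists and motifs were chosen with earlier results of these data known. Every *Tomm* and *Timm* gene is named, with per-library values for those past the threshold, for the core subunits and for those that never exceeded 3 counts in a group's libraries. Other import genes are named where past the threshold, and for *Tomm6* the 5 genes most alike. Exon overlap, length and shared stretches come from GENCODE vM21, which may differ from the annotation the authors counted with, and promoter windows from RefSeq. Alternatives were other scalings and library sizes, other filters, DESeq2 1.42.0, limma-voom (limma 3.58.1), a replicate block, an offset for GC and length, thinning, a stricter threshold and leaving out each library. Depth sets the precision of low genes, and Poisson intervals cover counting error only.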

Additional observations from a re-analysis of the deposited data

How the results depend on the processing

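The 4 calls among the *Tomm* and *Timm* genes became 3 with library sizes that left out the 100 most abundant genes or the mitochondrial genome, where *Timm10b* had adjusted p-values of 0.0506 and 0.0515, and 5 under DESeq2 (with *Timm13*) or the offset for GC content and length (with *Timm50*). Without a filter there were 4, 2 in each direction. At an adjusted p under 0.01 there were 0 calls among the members (edgeR, with 8 at an unadjusted p under 0.05, and 5 by DESeq2 at 0.05), 0 among the other import genes (11 unadjusted, 4 by DESeq2) and 87 over all genes. Leaving out 1 library gave 0 to 6 calls among the members, 0 to 4 among the other import genes and 46 to 2621 over all genes. The other import genes fell from 4 calls to 1 under both changes of library size. Over all genes there were 2261 calls, 3720 without a filter and 3556 under DESeq2. Library sizes without the mitochondrial genome gave 1164 higher and 730 lower, in place of 1143 and 1118.

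Same-numbered libraries did not all deviate together (correlations of -0.0135, 0.2594 and -0.0472 over 10764 genes), so the numbers are not read as pairs. The value of 0.2594, for saline 2 with microbead 2, was the highest between any saline and any microbead library. With a replicate block there were 905 calls over all genes, 1 among the members (*Tomm6*) and 0 among the other import genes, and with the block and the offset together 1222, 2 (*Tomm6* and *Timm23*) and 0. Not every library correlated best with its own number.

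The direction changed in members whose fold changes were near 0. *Timm9* was -0.01 and became 0.0142 (RLE), 0.0355 (upper quartile), 0.0476 (without the 100 most abundant genes), 0.0721 (without the mitochondrial genome), 0.0017 (at least 10 counts in every library), 0.0010 (DESeq2) and 0.0135 (limma-voom). *Timm17b* became -0.0572 with the offset and -0.0545 with offset and block. With 1 library left out, *Timm9* ran from -0.0839 to 0.1279, *Timm17b* from -0.0982 to 0.2532, *Tomm22* from -0.216 to 0.0275, *Tomm5* from -0.1371 to 0.3423, *Tomm7* from -0.17 to 0.2882 and *Timm8b* from -0.1382 to 0.2949, the last 3 being negative without microbead 1 alone. The cause was not tested. *Tomm6* was 4.53 in libraries thinned to equal totals and 3.45 to 3.68 under the other scalings, tests and offsets. It could not be fitted with at least 10 counts in every library, since 2 saline libraries had fewer. With 3 libraries a group and 2 to 17 counts of *Tomm6* in saline, small differences were not detectable.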
